A study of Homo sapiens with 13 samples.

Results

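The 9 genes described here encode inhibitory receptors of T cells or a ligand of such a receptor, and were followed by RNA sequencing in HuT78 cells. The members were PDCD1, CTLA4, TIGIT, LAG3, HAVCR2, BTLA, CD96, CD160 and CD274, taken by symbol from a count table of 45744 genes, and all 9 were listed there. HuT78 is an established T cell line of Sézary syndrome, a cutaneous T cell lymphoma whose malignant cells circulate in the blood, so every group is a treatment of a single line. All groups were kept in culture for 72 h with their agent. They comprised chaetocin at 10 nM (4 libraries, replicates 1 to 4), F5446 at 10 nM (3 libraries, replicates 2 to 4), romidepsin at 1 µM (4 libraries, replicates 1 to 4) and the vehicle DMSO (2 libraries, replicates 1 and 4). Chaetocin, made by fungi, and F5446, known here by its code name, inhibit histone methyltransferases of the SUV39H1 type, and romidepsin inhibits histone deacetylases. The labels do not say that replicates were separate cultures, so p-values measure the spread between these libraries, which may be technical.

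Immune checkpoint receptors sit on the T cell surface and dampen signals from the antigen receptor and from CD28. PD-1, encoded by PDCD1, binds PD-L1, encoded by CD274, and recruits the phosphatase SHP-2. CTLA-4 competes with CD28 for CD80 and CD86. TIGIT and CD96 share the poliovirus receptor PVR as a ligand with the activating receptor CD226, LAG-3 binds MHC class II, TIM-3, encoded by HAVCR2, binds galectin-9 among others, and BTLA and CD160 bind HVEM, encoded by TNFRSF14. Several of these receptors mark chronically stimulated T cells, and their expression by malignant T cells is one reason they are studied in cutaneous T cell lymphoma.

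Promoter sequences of 3 members are shown: those of CD96, the most abundant member, and TIGIT, a receptor for the same ligand at a low level, and that of CD274, the only ligand among the 9 genes. They run from 250 bases before to 50 after the annotated start and come from RefSeq on GRCh38.p14, a build other than the one the reads were counted on. The CD96 promoter lies at chr3:111541947-111542246 on the plus strand, that of TIGIT at chr3:114293778-114294077 on the plus strand, and that of CD274 at chr9:5450292-5450591 on the plus strand. Capitals mark matches, on either strand, to the STAT-type site TTCNNNGAA or to the interferon-stimulated response element, GAAA and GAAA with any 2 bases between them.
CD96: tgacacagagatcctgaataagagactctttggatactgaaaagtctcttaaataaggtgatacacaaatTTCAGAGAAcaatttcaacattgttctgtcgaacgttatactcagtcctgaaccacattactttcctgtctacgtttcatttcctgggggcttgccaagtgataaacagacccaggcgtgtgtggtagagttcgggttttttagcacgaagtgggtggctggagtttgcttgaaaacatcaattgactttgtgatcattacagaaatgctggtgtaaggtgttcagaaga
TIGIT: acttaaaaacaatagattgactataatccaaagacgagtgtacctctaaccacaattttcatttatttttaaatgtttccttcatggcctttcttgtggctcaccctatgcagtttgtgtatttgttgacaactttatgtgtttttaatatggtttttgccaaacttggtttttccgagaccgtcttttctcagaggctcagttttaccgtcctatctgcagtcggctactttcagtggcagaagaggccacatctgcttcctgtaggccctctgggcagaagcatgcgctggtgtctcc
CD274: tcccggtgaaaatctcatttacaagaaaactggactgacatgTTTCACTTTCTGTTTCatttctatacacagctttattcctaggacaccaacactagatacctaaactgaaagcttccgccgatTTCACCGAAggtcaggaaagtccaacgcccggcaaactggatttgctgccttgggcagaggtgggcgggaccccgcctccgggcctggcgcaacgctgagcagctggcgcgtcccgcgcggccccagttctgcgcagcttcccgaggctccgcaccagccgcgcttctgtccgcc
The CD96 promoter held 1 match to TTCNNNGAA, the CD274 promoter held 1 match to it and 2 overlapping matches to the response element, and the TIGIT window held neither. Promoters were found for 7 of the 9 members, and of the other members with a window only BTLA had a match, 1 to TTCNNNGAA. Of 35116 promoters of this length, 7.66% held the first motif and 3.57% the second. The CD274 window held 22 CpG dinucleotides, against 6 in each of the CD96 and TIGIT windows. A match describes the letters of the window and was not tested as a site.

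The libraries held 19901052 to 30816188 counts, and 17252 genes had enough counts to be tested. The first principal component held 17.8% of the variance. Scores were below 0 for all libraries with replicate numbers 1 and 2 and above 0 for all with numbers 3 and 4, and chaetocin replicate 3 stood apart at 113. Mitochondrially encoded genes took 15.9% of the counts in that library and 5.22 to 12.7% in the others. T cell markers were abundant in every library: 11 of 12 listed genes were in the table and all 11 were tested, with a summed level of 1326.6 to 2082.9 CPM, the counts scaled to a common normalized library size. Natural killer cell markers summed to at most 0.594 CPM, with NCR1 at 0 throughout, and none of the 6 was tested. In monocyte and macrophage markers, 2 of 7 were tested and CD68 was at 0. Their sum was 2.24 to 4.76 CPM in chaetocin, 2.33 to 3.2 in F5446, 1.91 to 4.55 in romidepsin and 1.55 to 1.82 in DMSO libraries. Markers of other lineages were higher. B cell markers (4 of 6 tested, none at 0 throughout) summed to 50.9 to 105 CPM in chaetocin, 68.3 to 93.3 in F5446, 69.8 to 98.9 in romidepsin and 62.5 to 73.4 in DMSO libraries, with CD79A at a mean of 46.7 CPM. Epithelial markers (4 of 6 tested, KRT19 at 0) summed to 51.8 to 64.9 CPM in chaetocin, 58.1 to 61.1 in F5446, 55.6 to 87.5 in romidepsin and 58.7 to 72.9 in DMSO libraries. Fibroblast markers (3 of 6 tested, none at 0 throughout) summed to 23 to 33 CPM in chaetocin, 17.3 to 22.1 in F5446, 19.2 to 27.2 in romidepsin and 18.2 to 21.6 in DMSO libraries, so that all chaetocin libraries lay above all F5446 and DMSO libraries. The part of any of these in the results was not tested.

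CD96 and LAG3 stood well above the other members in every library. To compare genes, levels were divided by the length of their merged exons (CPM per kb). CD96 stood highest at 33.3 ± 5.24 CPM per kb (SD, n = 13), above 93.2% of the tested genes that had a length, and LAG3 was next at 8.89 ± 1.88 CPM per kb, above 75% of them. The order CD96, LAG3, TIGIT held in all 13 libraries without overlap of their ranges. All the rest lay below 1 CPM per kb on average: TIGIT at 0.304 ± 0.15, CTLA4 at 0.23 ± 0.161, CD274 at 0.228 ± 0.111, PDCD1 at 0.112 ± 0.128, HAVCR2 at 0.0293 ± 0.0291, CD160 at 0.00724 ± 0.018 and BTLA at 0.00647 ± 0.0165 CPM per kb. Neighbours in that lower order overlapped in range, and TIGIT exceeded CTLA4 in 9 of 13 libraries and CTLA4 exceeded CD274 in 8. CD96 alone made up 82.5 to 88.8% of the summed CPM of the 9 genes in each library. The ratio of CD96 to LAG3 per kb ran from 2.87 in chaetocin replicate 3 to 5.05 in romidepsin replicate 1.

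**Figure D1:**
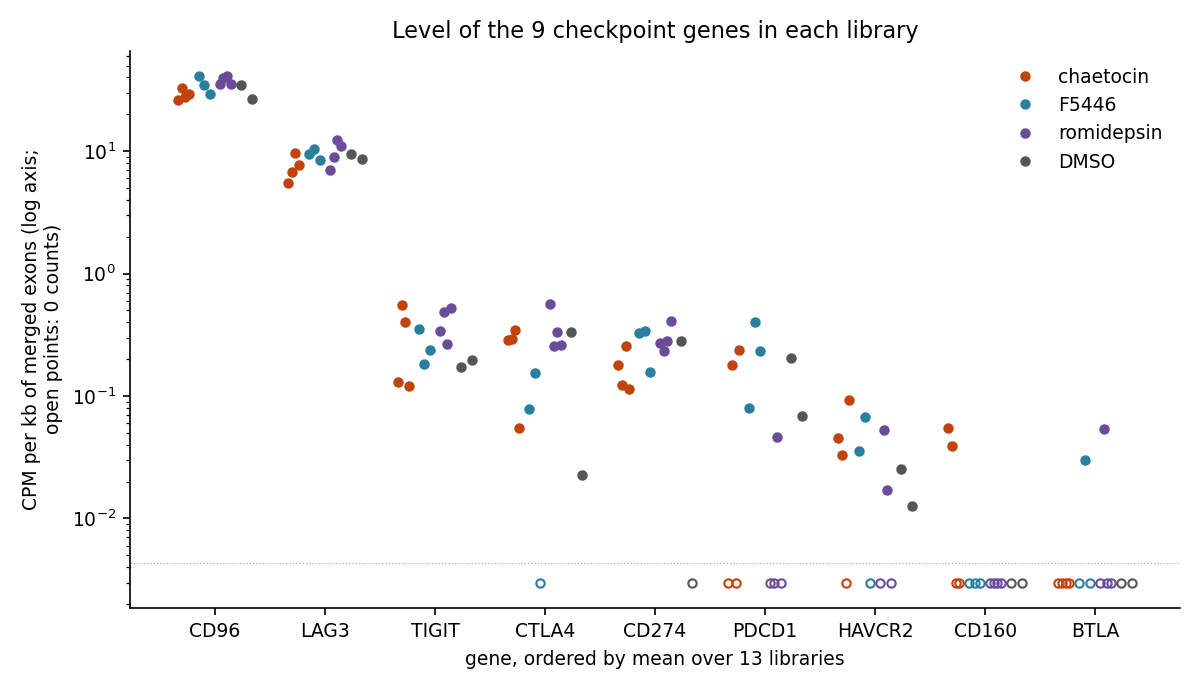
Level of each of the 9 genes in each of the 13 libraries, in CPM per kb of merged exon on a log axis, by treatment group; open points have 0 counts. CD96 averages 33.3 and LAG3 8.89 CPM per kb and their points do not overlap those of the other 7 genes.

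None of the 6 members that could be tested differed between groups after adjustment over all genes tested, and no other tested gene did. HAVCR2, BTLA and CD160 had too few counts to enter the test. With edgeR's quasi-likelihood test, 0 of 17252 genes had an adjusted p under 0.05 in chaetocin against DMSO, F5446 against DMSO, romidepsin against DMSO and chaetocin against F5446, a background of 0% in each. At an unadjusted p under 0.05, 703 genes (4.07%) stood out in chaetocin against DMSO, 428 (2.48%) in F5446 against DMSO, 487 (2.82%) in romidepsin against DMSO and 587 (3.4%) in chaetocin against F5446, and 0 of the 6 members did in each. DESeq2 called 10, 1, 1 and 2 genes in these comparisons, in that order, and limma-voom 1, 0, 0 and 0, with no member among them. Without the filter on low counts, 28048 genes were tested and 9, 0, 5 and 9 were called, again with no member. The fold change was above 0 for 3 of the 6 members in chaetocin against DMSO (51% of all tested genes), 5 in F5446 against DMSO (51.2%), 5 in romidepsin against DMSO (51%) and 2 in chaetocin against F5446 (49.9%). In romidepsin against DMSO, 3 of the 6 members did not overlap between the groups, 2 higher (CD96 and TIGIT) and 1 lower (PDCD1). Of all tested genes, 10.3% did not overlap (5.34% higher, 4.98% lower). PDCD1 did not pass the filter on low counts when romidepsin and DMSO, or chaetocin and DMSO, were fitted alone. CTLA4 did not pass it when F5446 and DMSO were fitted alone. In these comparisons the gene was tested only through the libraries of the other groups. In the other comparisons 0 members failed to overlap, against 11.3% of tested genes in chaetocin against DMSO, 18.6% in F5446 against DMSO and 5.38% in chaetocin against F5446. The compounds were all set against the same 2 DMSO libraries, so their folds share whatever sets those libraries apart. Romidepsin was given at another dose than the other compounds and was therefore compared with DMSO only.

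**Figure D2:**
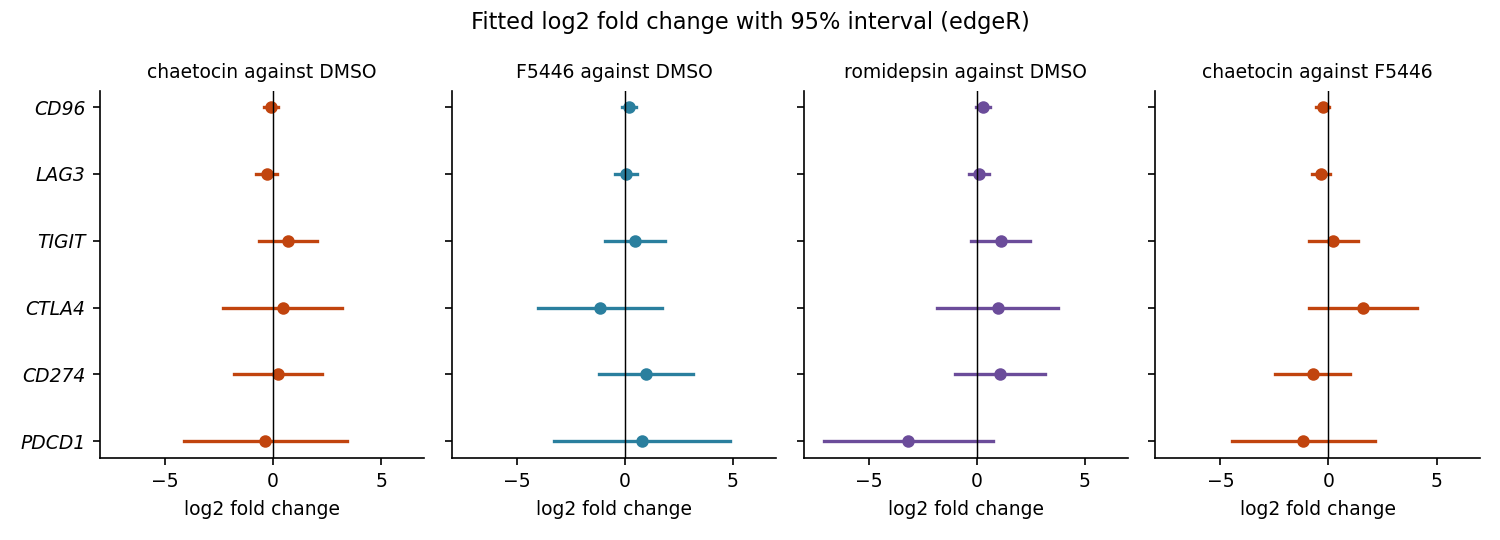
Fitted log2 fold change of the 6 tested members with its 95% confidence interval in chaetocin against DMSO, F5446 against DMSO, romidepsin against DMSO and chaetocin against F5446. Every interval spans 0; those of CD96 are the narrowest, such as -0.03 to 0.62 for romidepsin against DMSO, and those of PDCD1 the widest, such as -7.08 to 0.75.

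CD96, which encodes a receptor for PVR, was the member with by far the most counts. It was at 150.2, 188.7, 159.1 and 168.8 CPM in chaetocin replicates 1 to 4, at 236.4, 198.1 and 169.9 CPM in F5446 replicates 2 to 4 and at 202.7, 227.8, 235.7 and 203.4 CPM in romidepsin replicates 1 to 4, against 201.4 and 152.7 CPM in DMSO replicates 1 and 4. All romidepsin libraries lay above both DMSO libraries, by a margin of 202.7 against 201.4 CPM, while the chaetocin and F5446 libraries overlapped DMSO. The group means were 166.7 ± 16.5 CPM in chaetocin, 201.5 ± 33.4 in F5446, 217.4 ± 16.9 in romidepsin and 177 ± 34.4 in DMSO (SD, n = 4, 3, 4 and 2). In bulk RNA a lower share of cells with a transcript and less of it per cell cannot be told apart.

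The log2 fold change of CD96 was 0.30 (95% CI -0.03 to 0.62, unadjusted p = 0.0715, adjusted p = 1, edgeR) for romidepsin against DMSO, 0.19 (-0.15 to 0.53) for F5446 against DMSO and -0.09 (-0.41 to 0.23) for chaetocin against DMSO. The romidepsin value was 0.51 without DMSO replicate 1 and 0.11 without DMSO replicate 4, and the chaetocin value was 0.13 without DMSO replicate 1. Within replicate numbers the romidepsin difference was 0.09 among libraries 1 and 2 and 0.52 among 3 and 4, each resting on a single DMSO library. Between the inhibitors at the same dose and time, CD96 was lower in chaetocin than in F5446 by a log2 fold change of -0.27 (95% CI -0.56 to 0.01, unadjusted p = 0.0566, adjusted p = 0.999, edgeR). The libraries of the 2 compounds overlapped, and the difference was -0.49 among replicate numbers 1 and 2 and -0.16 among 3 and 4.

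LAG3, which encodes the MHC class II receptor LAG-3, was the other member at a level that allowed a close comparison. It was at 16.8, 20.6, 29.4 and 23.6 CPM in chaetocin replicates 1 to 4, at 29.1, 31.8 and 25.9 CPM in F5446 replicates 2 to 4 and at 21.3, 27.3, 37.8 and 34.1 CPM in romidepsin replicates 1 to 4, against 29.1 and 26.5 CPM in DMSO replicates 1 and 4. The lowest values were in chaetocin replicates 1 and 2 and the highest in romidepsin replicates 3 and 4, and every group overlapped DMSO. The log2 fold change was -0.30 (95% CI -0.77 to 0.17) for chaetocin against DMSO, 0.06 (-0.44 to 0.56) for F5446 against DMSO and 0.11 (-0.36 to 0.59) for romidepsin against DMSO. The chaetocin value was -0.50 with the replicate number as a block (unadjusted p = 0.0105, adjusted p = 0.618, edgeR) and -0.45 without chaetocin replicate 3.

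LAG3 differed by replicate number in some groups. It averaged 18.7 CPM among libraries 1 and 2 and 26.5 CPM among 3 and 4 in chaetocin, and 24.3 and 35.9 CPM in romidepsin. In F5446 it was at 29.1 CPM in library 2 and averaged 28.9 CPM among 3 and 4, and in DMSO it was at 29.1 CPM in library 1 and 26.5 CPM in library 4, the opposite direction. Among libraries 1 and 2, LAG3 differed from DMSO by -0.65 on the log2 scale in chaetocin and by -0.27 in romidepsin, and among libraries 3 and 4 by -0.01 in chaetocin and 0.44 in romidepsin. Leaving out romidepsin replicate 3 turned the romidepsin value to -0.015, and leaving out F5446 replicate 3 or DMSO replicate 4 turned the F5446 value to -0.016 or -0.0067. Chaetocin against F5446 gave -0.36 (95% CI -0.77 to 0.06, unadjusted p = 0.0865, adjusted p = 0.999, edgeR), with -0.65 among replicate numbers 1 and 2 and -0.12 among 3 and 4. With chaetocin replicate 3 left out, the library that stood apart on the first principal component, it was -0.50.

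**Figure D3:**
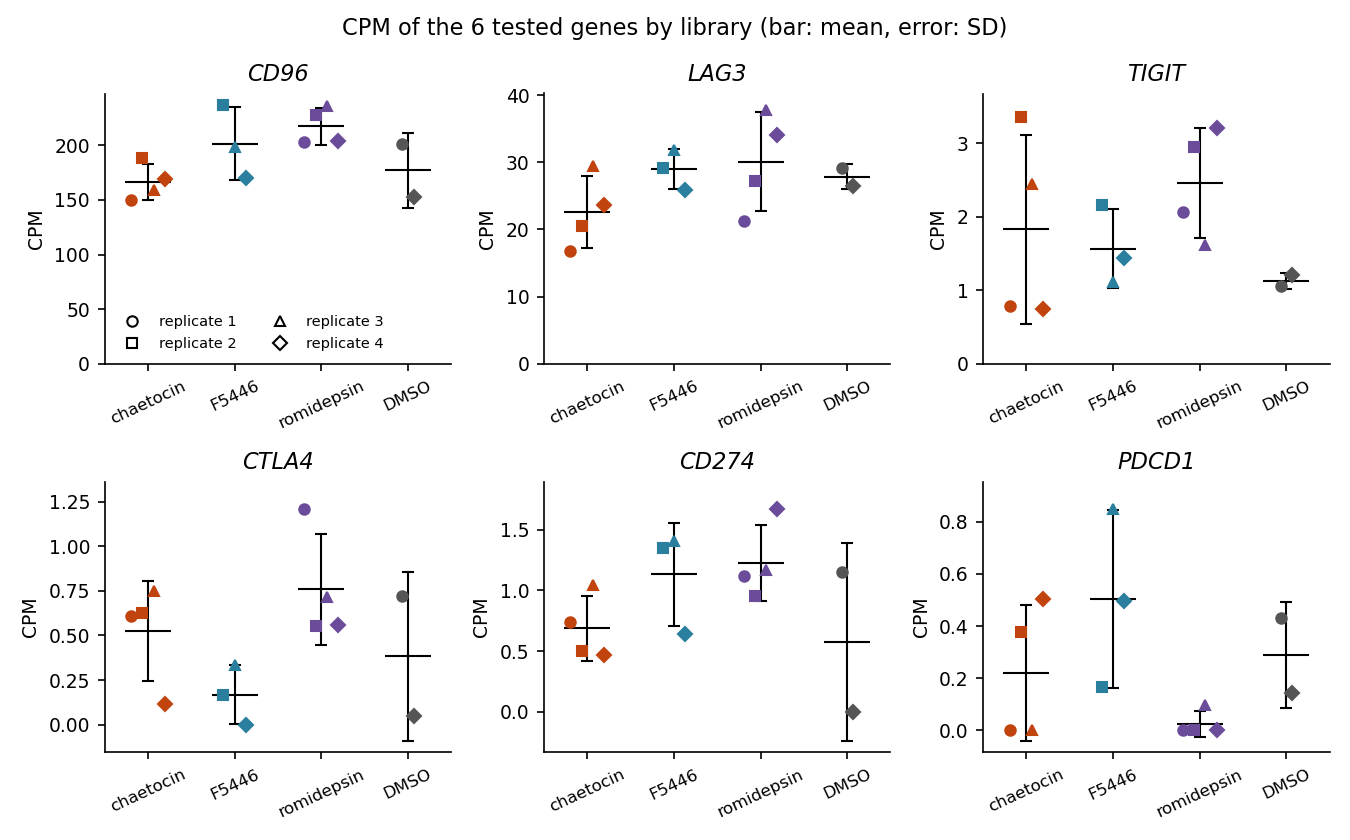
CPM of the 6 tested members in each library, with the group mean and SD, in chaetocin, F5446, romidepsin and DMSO libraries; the marker shape gives the replicate number. CD96 lies between 150.2 and 236.4 CPM and LAG3 between 16.8 and 37.8 CPM, while the low members PDCD1, CTLA4 and CD274 include libraries at or near 0.

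TIGIT, which encodes a receptor for PVR, was present at a low level in every library. It was at 0.783, 3.35, 2.44 and 0.739 CPM in chaetocin replicates 1 to 4, at 2.16, 1.11 and 1.44 CPM in F5446 replicates 2 to 4 and at 2.06, 2.95, 1.62 and 3.2 CPM in romidepsin replicates 1 to 4, against 1.05 and 1.21 CPM in DMSO replicates 1 and 4. All 4 romidepsin libraries lay above both DMSO libraries, whereas chaetocin libraries lay on both sides of them. The log2 fold change for romidepsin against DMSO was 1.11 (95% CI -0.24 to 2.47, unadjusted p = 0.102, adjusted p = 1, edgeR), with 1.16 among replicate numbers 1 and 2 and 0.87 among 3 and 4. It was 0.69 (-0.64 to 2.03) for chaetocin against DMSO, 0.47 (-0.92 to 1.86) for F5446 against DMSO and 0.22 (-0.91 to 1.36) for chaetocin against F5446. The last of these was -0.25 without chaetocin replicate 2, which alone held 107 of the 193 TIGIT counts in the chaetocin group.

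CTLA4, which encodes the receptor that competes with CD28, was at 0.609, 0.626, 0.748 and 0.117 CPM in chaetocin replicates 1 to 4, at 0.168, 0.332 and 0 CPM in F5446 replicates 2 to 4 and at 1.21, 0.55, 0.713 and 0.557 CPM in romidepsin replicates 1 to 4, against 0.719 and 0.0483 CPM in DMSO replicates 1 and 4. The DMSO libraries thus held 15 counts and 1 count of CTLA4, and every treated group overlapped them. The log2 fold change was 0.44 (95% CI -2.31 to 3.2) for chaetocin against DMSO, -1.15 (-4.02 to 1.72) for F5446 against DMSO, 0.97 (-1.83 to 3.78) for romidepsin against DMSO and 1.59 (-0.92 to 4.11) for chaetocin against F5446. For F5446 against DMSO, CTLA4 passed the filter on low counts only through the libraries of the other groups. Without DMSO replicate 1 the F5446 value turned to 1.70, and without DMSO replicate 4 the chaetocin value turned to -0.45. The romidepsin value was 3.84 without DMSO replicate 1 and 0.0755 without DMSO replicate 4.

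PDCD1, which encodes PD-1, was close to the detection limit. It had 0, 12, 0 and 13 counts in chaetocin replicates 1 to 4, 5, 23 and 10 counts in F5446 replicates 2 to 4 and 0, 0, 3 and 0 counts in romidepsin replicates 1 to 4, against 9 and 3 counts in DMSO replicates 1 and 4. The group means were 0.22 ± 0.26 CPM in chaetocin, 0.504 ± 0.34 in F5446, 0.0243 ± 0.0486 in romidepsin and 0.288 ± 0.202 in DMSO (SD). All romidepsin libraries lay below both DMSO libraries, at 0.0972 CPM or less against 0.431 and 0.145 CPM. Summed over each group, 3 counts in romidepsin against 12 in DMSO gave a ratio of 0.11, with a 95% interval of 0.0199 to 0.407 that covers counting error only. The fit, which also carries the spread between libraries, gave a log2 fold change of -3.16 (95% CI -7.08 to 0.75, unadjusted p = 0.108, adjusted p = 1, edgeR) for that comparison. Without romidepsin replicate 3, the only library of that group with counts, it was -5.79 (unadjusted p = 0.0338, adjusted p = 1, edgeR), which sets a group at 0, depends on the prior count and is no bound. With all libraries it gave -0.36 (-4.14 to 3.42) for chaetocin against DMSO, 0.79 (-3.29 to 4.88) for F5446 against DMSO and -1.15 (-4.46 to 2.15) for chaetocin against F5446. The chaetocin value against DMSO was 0.60 without DMSO replicate 1 and 0.04 without chaetocin replicate 1 or 3. Against DMSO, PDCD1 passed the filter for chaetocin and for romidepsin only through the libraries of other groups.

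HAVCR2, CD160 and BTLA were at or near 0 in HuT78. HAVCR2, which encodes TIM-3, had 4, 4, 0 and 9 counts in chaetocin replicates 1 to 4, 4, 7 and 0 in F5446 replicates 2 to 4 and 0, 4, 2 and 0 in romidepsin replicates 1 to 4, against 2 and 1 in DMSO replicates 1 and 4. Against the 3 counts of the DMSO group, the summed ratio was 2.34 (95% counting interval 0.676 to 12.5) in chaetocin, 1.98 (0.523 to 11.1) in F5446 and 0.878 (0.187 to 5.42) in romidepsin, so no difference was detectable at this depth. CD160 had 5 counts in each of chaetocin replicates 1 and 2 and 0 counts in the other 11 libraries. BTLA had 3 counts in F5446 replicate 3, 4 in romidepsin replicate 2 and 0 in every chaetocin and DMSO library. A count of 0 in both DMSO libraries allows a level of up to 0.0722 CPM, taking 3 counts over the group.

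CD274, which encodes PD-L1 and is the only ligand among the 9 genes, was at 0.739, 0.501, 1.05 and 0.466 CPM in chaetocin replicates 1 to 4, at 1.35, 1.4 and 0.643 CPM in F5446 replicates 2 to 4 and at 1.12, 0.95, 1.17 and 1.67 CPM in romidepsin replicates 1 to 4, against 1.15 and 0 CPM in DMSO replicates 1 and 4. The DMSO libraries held 24 and 0 counts, so the treated groups overlapped their range. The log2 fold change was 0.25 (95% CI -1.79 to 2.28) for chaetocin against DMSO, 0.97 (-1.18 to 3.13) for F5446 against DMSO, 1.09 (-1.0 to 3.17) for romidepsin against DMSO and -0.72 (-2.45 to 1.00) for chaetocin against F5446. Without DMSO replicate 4, the library with 0 counts, the values against DMSO were -0.75 for chaetocin, -0.016 for F5446 and 0.09 for romidepsin. Without chaetocin replicate 3 the chaetocin value was -0.013. With limma-voom the romidepsin value was 2.85 (unadjusted p = 0.0401, adjusted p = 1). Without DMSO replicate 1 the only control left is at 0 counts, so no fold is read from it.

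Several ligands and binding partners of these receptors were expressed at over 1 CPM per kb. The PVR and nectin family holds ligands of TIGIT, CD96 and PVRIG, which are not matched here to each receptor. In that family NECTIN1 averaged 10.3 CPM per kb, PVR 7.71 and NECTIN3 2.26 over the 13 libraries, with NECTIN2 at 0.224 CPM per kb. PVRIG, another inhibitory receptor of that family, averaged 22.3 CPM per kb, between CD96 and LAG3, although it has a near-identical pseudogene copy and its counts are uncertain. CD226, the activating receptor that shares PVR, averaged 0.139 CPM per kb. The CTLA-4 and CD28 ligand CD86 averaged 2.65 CPM per kb and CD80 0.0505. Galectin-9, encoded by LGALS9 and a ligand of TIM-3, averaged 1.39 CPM per kb. TNFRSF14, the partner of BTLA and CD160, averaged 1.01 CPM per kb. The second PD-1 ligand, encoded by PDCD1LG2, averaged 0.341 CPM per kb, beside 0.228 for CD274.

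**Figure D4:**
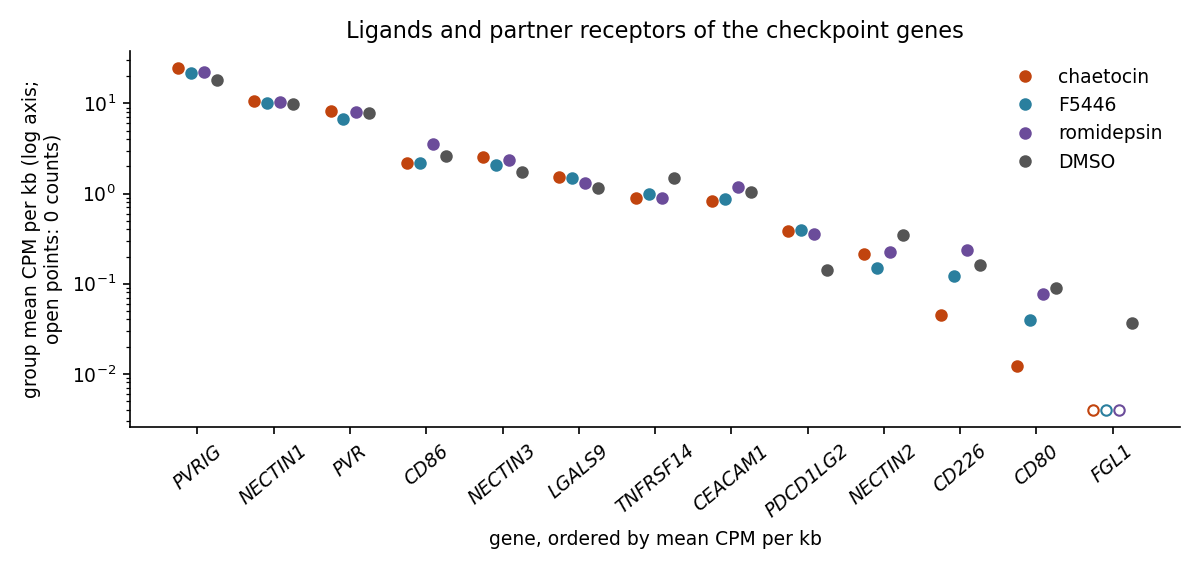
Mean level of 13 ligands and partners of the inhibitory receptors in chaetocin, F5446, romidepsin and DMSO libraries, in CPM per kb on a log axis. PVRIG and NECTIN1 stand highest, at 22.3 and 10.3 CPM per kb over all libraries, and FGL1, a ligand of LAG-3, lowest at 0.00558.

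Lists of further genes of the pathway were read by their counts. They were ligands of inhibitory receptors (17 of 21 in the table tested), other inhibitory receptors (17 of 26), costimulatory partners (11 of 13), checkpoint signalling proteins (25 of 25) and transcription factors of exhaustion and checkpoint expression (27 of 30). None of their genes was called in any comparison. The list of other inhibitory receptors also held the adaptors PAG1, LAX1 and SIT1 and the ectoenzymes ENTPD1 and NT5E, so its values are not those of receptors alone. For chaetocin against DMSO the median log2 fold change was -0.27 for ligands, -0.05 for other receptors, 0.23 for costimulatory partners, -0.07 for signalling and 0.02 for transcription factors, beside 0.08 for the 6 members and 0.01 for all tested genes. For F5446 against DMSO the medians of the 5 lists lay between -0.05 and 0.12, beside 0.33 for the members and 0.0092 for all tested genes. For romidepsin against DMSO they lay between -0.0056 and 0.12, beside 0.63 for the members and 0.0054 for all tested genes. The member medians rest on 6 genes, among them TIGIT, CTLA4, CD274 and PDCD1, which averaged 1.85 CPM or less and had wide intervals. Without DMSO replicate 4 the romidepsin value was 0.0755 for CTLA4 and 0.09 for CD274. The member medians are thus not read as a shift of the set. For chaetocin against F5446 the medians of the 5 lists lay between -0.09 and 0.05, beside -0.32 for the members. In that comparison 49.9% of all tested genes had a fold change above 0. Above 0 were 6 of 17 ligands, 9 of 17 other receptors, 6 of 11 costimulatory partners, 5 of 25 signalling genes and 13 of 27 transcription factors.

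**Figure D5:**
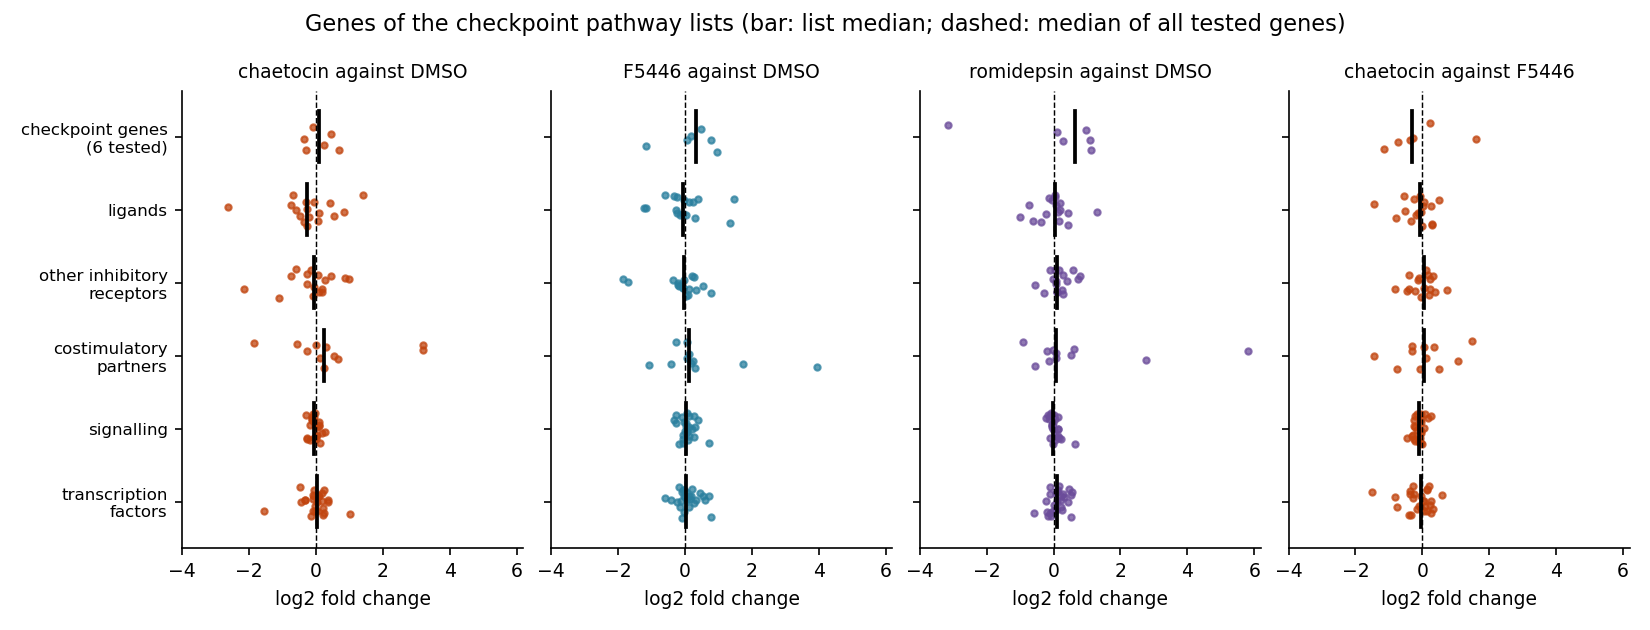
Log2 fold change of each tested gene of the 5 lists and of the members in chaetocin against DMSO, F5446 against DMSO, romidepsin against DMSO and chaetocin against F5446; bars mark list medians and the dashed line the median over all tested genes. The medians of the 5 lists against DMSO lie between -0.27 and 0.23. Those of the members are 0.08 for chaetocin, 0.33 for F5446 and 0.63 for romidepsin.

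The list genes with the smallest p-values were named in each comparison, and all had an adjusted p of 1 against DMSO or 0.999 between the compounds in edgeR. TNFRSF14, the HVEM gene, was at 5.55 ± 1.19 CPM in chaetocin, 6.08 ± 1.08 in F5446 and 5.61 ± 1.51 in romidepsin, against 9.23 ± 1.24 CPM in DMSO. The DMSO libraries, at 10.1 and 8.36 CPM, lay above all 11 treated libraries, whose highest was 7.48 CPM. TNFRSF14 was named for its small p in these data, so that separation is no independent support. Of all tested genes, 11.3% did not overlap DMSO in chaetocin, 18.6% in F5446 and 10.3% in romidepsin. The share for all treated libraries at once was not counted. The log2 fold change of TNFRSF14 was -0.74 (unadjusted p = 0.0254, edgeR) for chaetocin, -0.60 (0.0784) for F5446 and -0.72 (0.0281) for romidepsin, all against the same 2 libraries. Among other inhibitory receptors, PVRIG was at 49.2 ± 4.3 CPM in chaetocin against 35.9 ± 4.99 CPM in DMSO (log2 0.46, unadjusted p = 0.0224, edgeR). CD200R1, the receptor for CD200, was at 18.5 ± 5.59 CPM in romidepsin against 11 ± 2.72 CPM in DMSO (log2 0.74, unadjusted p = 0.044, edgeR), and at 7.24 ± 2.91 CPM in chaetocin against 12.7 ± 1.87 CPM in F5446 (log2 -0.81, unadjusted p = 0.0125, edgeR).

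Romidepsin against DMSO named further genes of the costimulatory, signalling and transcription factor lists. TNFRSF4, the costimulatory receptor OX40, was at 3.27, 2.3, 6.06 and 5.01 CPM in romidepsin replicates 1 to 4 against 6.95 and 8.84 CPM in DMSO (log2 -0.91, unadjusted p = 0.00766, edgeR), and at 12.5 ± 1.87 CPM in chaetocin (log2 0.67 against DMSO, unadjusted p = 0.0503, edgeR). Its romidepsin libraries all lay below DMSO and its chaetocin libraries all above, in a gene named for its small p in these data. Of the 17252 tested genes, 4.98% lay lower without overlap in romidepsin and 901 genes lay higher without overlap in chaetocin. SH2D1A, which encodes the SLAM adaptor SAP, was at 32.5, 33.6, 45.1 and 33.2 CPM in romidepsin replicates 1 to 4 against 20.2 and 25.7 CPM in DMSO (log2 0.65, unadjusted p = 0.00364, edgeR). PRDM1, the transcriptional repressor BLIMP-1, was at 57.7 ± 6.66 CPM in romidepsin against 39.2 ± 1.32 CPM in DMSO (log2 0.56, unadjusted p = 0.0051, edgeR). TOX2, a member of the TOX family of DNA-binding factors, was at 191 ± 58.5 CPM in romidepsin against 142 ± 13.1 CPM in DMSO, with 279 CPM in romidepsin replicate 4 (log2 0.43, unadjusted p = 0.0393, edgeR). CD40LG, the CD40 ligand, was at 0.854 ± 0.482 CPM in romidepsin against 0.12 ± 0.169 CPM in DMSO (log2 2.77, unadjusted p = 0.0584, edgeR). It was at 1.14 ± 0.27 CPM in chaetocin (log2 3.20 against DMSO, unadjusted p = 0.0335, edgeR) and at 0.401 ± 0.464 CPM in F5446. The DMSO libraries held 5 and 0 counts of CD40LG.

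Chaetocin and F5446, given at the same dose and for the same time, were compared over all 6 testable members, and no member separated them. With adjustment over all 17252 genes, 0 genes were called by edgeR. With the replicate number as a block, 11 genes were called, none of them a member, and CD96 was at a log2 fold change of -0.25 (unadjusted p = 0.0269, adjusted p = 0.831, edgeR). Beyond CD96 and LAG3 the intervals were wide, from -4.46 to 2.15 for PDCD1 and from -0.91 to 1.36 for TIGIT, and do not show that the compounds act alike. Among the list genes, BTN3A1, a butyrophilin sensed by gamma delta T cells, was at 23.3 ± 2.82 CPM in chaetocin against 33.8 ± 2.76 CPM in F5446 (log2 -0.53, unadjusted p = 0.0146, edgeR). BTN3A1 has close paralogs, and its counts are uncertain. PAG1, an adaptor that recruits CSK, was at 94.8 ± 15.2 CPM in chaetocin against 73.6 ± 5.34 CPM in F5446 (log2 0.37, unadjusted p = 0.0214, edgeR).

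Only CD96 and LAG3 had a mean of 5 CPM or more, and for these the genes with the most similar pattern over the 13 libraries were sought among 10095 genes at that level. For CD96 they were CD3G, a chain of the T cell receptor complex (Pearson r = 0.884, Spearman rho = 0.918), and PSMB9, an immunoproteasome subunit (r = 0.877, rho = 0.879). For LAG3 they were HCP5, a non-coding gene of the MHC region (r = 0.898, rho = 0.852), and CD52, a lymphocyte surface glycoprotein (r = 0.893, rho = 0.786). These are descriptions over libraries that share replicate numbers and differ in depth.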

How the data were processed

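RNA was sequenced from 13 HuT78 libraries. Per the labels' protocols, RNA came from a column kit with DNase treatment and libraries from a kit for human FFPE RNA. Per the submitters' processing notes, the tools were bcl2fastq 2.20.0.422, cutadapt 1.8.1 and HTSeq 0.6.1, and the build hg19. Which aligner, annotation and strand setting were used is not given in the sources used here. Overlapping and antisense genes therefore cannot be separated. The authors deposited raw counts per gene, whole numbers that were used unchanged. Libraries were grouped by title; the treatment tags of the F5446 libraries end in different digits, while the titles all give F5446.

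A model with a term for group covered the 13 libraries, in edgeR 4.0.16 (R 4.3.3; TMM, filterByExpr, robust quasi-likelihood, two-sided). Adjustment was by Benjamini-Hochberg over the genes tested, with a threshold of 0.05. Confidence intervals are at 95%, and counting intervals cover counting error only. Log2 CPM used a prior count of 2, and so did what was taken from it. These were the principal components, the differences within replicate numbers and the search for similar genes. Fitted fold changes used the default of each tool instead. With a group at or near 0 counts, the 2 kinds of value are therefore not on 1 scale. Exon lengths came from GENCODE on GRCh38, matched by gene ID. The pipeline was tested on simulated data. Alternatives were DESeq2 1.42.0, voom from limma 3.58.1, other scalings and filters, a non-robust fit, fits of the groups compared alone, a replicate block, a term that sets replicate numbers 1 and 2 against 3 and 4, omission of mitochondrially encoded genes and each library left out in turn. Figures used matplotlib 3.10.9 in Python 3.11.15.

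Between chaetocin and F5446, same-numbered libraries deviated together from their group means. The correlations over genes were 0.414, 0.165 and 0.361 for replicates 2, 3 and 4. With same-numbered DMSO libraries they were 0.47 and 0.477 for chaetocin replicates 1 and 4 and 0.483 for F5446 replicate 4. For romidepsin replicates 1 and 4 they were 0.441 and 0.28. The 2 DMSO libraries deviate from their mean by equal amounts in opposite directions. Such correlations were computed only for libraries of the same number, so none across numbers can be set beside them. The first principal component set numbers 1 and 2 apart from 3 and 4. Pairing by number is therefore not shown, and the labels do not say what a number marks. The members and the gene lists were chosen with earlier results of these data known. List genes were named by a rule, the 2 with the smallest p in each list and comparison, of which those described are a part; the other genes named are ligands, partners and the genes most like CD96 and LAG3.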

Additional observations from a re-analysis of the deposited data

Results flagged for a closer look

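A single library lay far from the other 3 of its group for 4 genes, out of 47 groups of 4 libraries examined. All 4 were in the romidepsin group. The rule sets apart about 1 in 20 groups of normally distributed values, a rate that does not apply here. A gene with counts in a single library, as PDCD1 and BTLA, meets the rule by construction. SH2D1A and TOX2 were examined because their p-values in these data were the smallest of their lists. PDCD1 was at 0.0972 CPM in romidepsin replicate 3 and at 0 in the others, a difference of 3 counts. BTLA was at 0.2 CPM in romidepsin replicate 2 and at 0 in the others, a difference of 4 counts. SH2D1A was at 45.1 CPM in romidepsin replicate 3 and at 32.5 to 33.6 CPM in the others. TOX2 was at 279 CPM in romidepsin replicate 4 and at 158 to 167 CPM in the others.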

How the results depend on the processing

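No member was called under any alternative, and 372 of 389 member values kept their direction and side of the threshold, while 17 turned in sign. Counts of called genes, 0 in each comparison, moved in these fits: for chaetocin against DMSO they were 10 with DESeq2, 1 with limma-voom, 9 with no filter, 1 with the non-robust fit, 10 with the replicate block, 7 with the term for replicate numbers and 0 to 2 with a library left out (2 without DMSO replicate 4, 1 without chaetocin replicate 4). For F5446 against DMSO the count was 1 with DESeq2. For romidepsin against DMSO it was 1 with DESeq2, 5 with no filter, 1 with the replicate block and 1 with the term. For chaetocin against F5446 it was 2 with DESeq2, 9 with no filter, 11 with the replicate block and 5 with the term. The replicate block is not read as a pairing in any comparison, and the DMSO comparisons share fewer than 3 replicate numbers. That block turned the log2 fold change against DMSO of PDCD1 to -0.90, of TIGIT to -0.091 and of LAG3 to -0.22 in F5446. In romidepsin it turned that of LAG3 to -0.080, and in chaetocin LAG3 was at -0.50. With a library left out, values against DMSO ran from -1.11 to 0.60 for PDCD1, -0.45 to 3.31 for CTLA4, -0.27 to 0.13 for CD96 and -0.75 to 7.08 for CD274 in chaetocin; from -2.04 to 1.70 for CTLA4, -0.016 to 0.13 for LAG3 and -0.016 to 7.79 for CD274 in F5446; and from -0.015 to 0.25 for LAG3 in romidepsin. CTLA4 in romidepsin against DMSO ran from 0.0755 to 3.84. TIGIT in chaetocin against F5446 ran from -0.25 to 0.53. The high CD274 values rest on a control at 0 counts, depend on the default prior count of the fit and are no bound. A filter at a mean of 5 CPM left CD96 and LAG3 as the members tested. Where a fit kept a single DMSO library, its spread was taken to equal that of the rest. The cause of these shifts was not tested. Depth limits PDCD1, HAVCR2, CD160 and BTLA, which had at most 23 counts in any library.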
